A study of Mus musculus with 6 samples.

Results

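The nuclear genes that encode the subunits of the mitochondrial respiratory chain and of ATP synthase were followed across 6 mouse RNA sequencing libraries. Members were chosen by gene symbol: rows beginning with Atp5, with Cox4 to Cox8, with Uqcr, or with Ndufs, Ndufv, Ndufc, Ndufb or Ndufa, and the 4 genes Sdha to Sdhd. Of the 107 rows with such symbols, 8 Ndufaf assembly factors and 9 rows with -ps in the symbol were dropped, which left 90 of the 55536 named rows of the table. These 90 rows carried 89 symbols, since Atp5o stood in the table as 2 rows, and 86 of them were protein-coding genes in the GENCODE M21 annotation of GRCm38. Ndufa11b, Ndufb4c, Ndufs6b and Cox6c2 were annotated there as processed pseudogenes. Levels are given in scaled CPM, the CPM unit with library sizes adjusted by TMM, a scaling that assumes most genes to be equal between libraries. In 81 members at least 1 library reached 1 CPM before this scaling. Of the other 9, 7 had no count in any library: Ndufa11b, Ndufs6b, Cox6c2, Cox7b2, Cox8b, Cox8c and the second Atp5o row. A count of 0 allows up to 3 counts, which was between 0.123 and 0.164 scaled CPM in these libraries. Cox4i2 had 5 counts in BM and at most 1 elsewhere, and Ndufa4l2 had at most 3 counts in any library.

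All samples came from C57BL/6 mice aged 8 weeks. GM-BMDM were macrophages grown from bone marrow for 7 days with GM-CSF, and were sequenced with and without interleukin-6 (IL6) for 3 h. M-BMDM were grown for 7 days with M-CSF and were sequenced without IL6, after 3 h and after 24 h of it, and BM was uncultured bone marrow. Each of these groups had 1 library, and the labels do not say whether the cultures came from separate animals or whether cells were sorted. Library totals ran from 18567482 to 24196082 counts. The 9 macrophage markers summed to 47758 and 48974 scaled CPM in the GM-CSF libraries and to between 26648 and 38759 in the M-CSF libraries, against 6312 in BM. The 8 neutrophil markers summed to at most 19.2 scaled CPM in the 5 cultures, against 37104 in BM, and the 7 erythroid markers to at most 10.3, against 81619 in BM. Of the neutrophil genes, Elane and Retnlg were at 0 in the 3 M-CSF libraries and Retnlg in both GM-CSF libraries. The marker sums thus match the labels of marrow and of macrophage cultures. Single macrophage markers did not all follow their sum. In the test of the macrophage types below, 3 of the 9 rose in the GM-CSF cultures and 5 fell. Dendritic cell markers were not among the marker lists.

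Oxidative phosphorylation runs on protein complexes of the inner mitochondrial membrane. Complex I oxidises NADH and complex II oxidises succinate, both pass electrons to ubiquinone, complex III hands them on to cytochrome c, and complex IV reduces oxygen. Complexes I, III and IV pump protons, and ATP synthase, also called complex V, uses the gradient to make ATP. Most subunits are encoded in the nucleus and imported, while a small core of complexes I, III, IV and V is encoded by mitochondrial DNA, so the products of both genomes are assembled together. Macrophages are known to differ in their use of this pathway with their growth factor and their activation.

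The promoters of 5 members are shown, chosen by their adjusted p in the test of the macrophage types: Ndufa1, Sdhd, Cox7b and Cox8a were the 4 members with the lowest adjusted p among those that rose in the GM-CSF type, and Ndufa4 was the member that fell. Each run covers 250 bases before to 50 after the start of the gene in RefSeq (GRCm38.p6), read 5′ to 3′ on the gene's strand, and capitals mark the ETS motif CCGGAAG or its reverse complement CTTCCGG.
Ndufa1, chrX:37191189-37191488, minus strand: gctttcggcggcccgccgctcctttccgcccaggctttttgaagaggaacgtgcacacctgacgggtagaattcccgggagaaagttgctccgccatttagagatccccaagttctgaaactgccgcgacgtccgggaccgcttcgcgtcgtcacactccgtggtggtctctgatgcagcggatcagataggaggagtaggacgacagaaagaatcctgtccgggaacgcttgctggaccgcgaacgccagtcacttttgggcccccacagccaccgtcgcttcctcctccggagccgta
Sdhd, chr9:50603800-50604099, minus strand: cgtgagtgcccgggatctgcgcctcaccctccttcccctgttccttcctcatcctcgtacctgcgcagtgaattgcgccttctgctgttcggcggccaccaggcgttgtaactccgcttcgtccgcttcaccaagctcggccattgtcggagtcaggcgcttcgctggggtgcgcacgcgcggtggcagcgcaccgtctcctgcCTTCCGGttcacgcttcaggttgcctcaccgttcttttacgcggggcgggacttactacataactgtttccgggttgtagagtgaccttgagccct
Cox7b, chrX:106015450-106015749, plus strand: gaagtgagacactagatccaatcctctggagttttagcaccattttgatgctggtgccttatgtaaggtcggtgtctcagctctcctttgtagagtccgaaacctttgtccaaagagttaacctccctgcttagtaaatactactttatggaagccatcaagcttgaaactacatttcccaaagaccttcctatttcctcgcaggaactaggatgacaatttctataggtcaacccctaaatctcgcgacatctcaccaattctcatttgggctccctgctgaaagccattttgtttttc
Cox8a, chr19:7217567-7217866, minus strand: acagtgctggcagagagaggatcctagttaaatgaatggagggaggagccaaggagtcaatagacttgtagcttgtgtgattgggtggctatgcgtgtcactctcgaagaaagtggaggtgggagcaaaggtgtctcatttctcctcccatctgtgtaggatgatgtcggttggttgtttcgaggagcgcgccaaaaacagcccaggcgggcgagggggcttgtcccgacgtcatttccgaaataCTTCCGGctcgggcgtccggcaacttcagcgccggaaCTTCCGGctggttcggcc
Ndufa4, chr6:11907401-11907700, minus strand: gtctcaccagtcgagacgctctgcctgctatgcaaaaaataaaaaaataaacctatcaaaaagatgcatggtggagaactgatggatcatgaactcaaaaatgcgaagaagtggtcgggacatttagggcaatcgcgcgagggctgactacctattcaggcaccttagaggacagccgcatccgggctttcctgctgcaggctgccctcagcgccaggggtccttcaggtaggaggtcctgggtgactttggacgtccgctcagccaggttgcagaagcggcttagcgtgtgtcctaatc

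Motifs of 3 factors known to act on respiratory chain promoters were searched as exact letters on both strands: the palindromic site of NRF1, the ETS core bound by GABPA (CCGGAAG) and the YY1 site (AAGATGGC). A match describes the letters of the window and is not a measured binding site. Of the 81 members above the level filter, 67 had a RefSeq promoter in the table, and 28 of these (41.8%) held at least 1 of the motifs. The share was 25.2% of the promoters of 10319 protein-coding genes analysed and 13.4% of all 27025 promoters. NRF1 letters stood in 7.46% of the member promoters against 2.26% of the protein-coding genes analysed, YY1 letters in 14.9% against 5.1%, and ETS letters in 23.9% against 19.6%. Of the printed promoters, that of Sdhd held 1 ETS match and that of Cox8a held 2, and those of Ndufa1, Cox7b and Ndufa4 held none of the 3 motifs. The printed Sdhd window also holds the start of Timm8b, which encodes a small chaperone of the intermembrane space and lies on the other strand, 97 bases from Sdhd in the annotation. Timm8b, described here for its position, had 39.3 and 44.7 scaled CPM in GM-BMDM with IL6 for 3 h and without, against 16.9, 21.0 and 15.2 in M-BMDM without IL6, after 3 h and after 24 h (log2 fold change of the GM-CSF type 1.15, edgeR adjusted p 3.03e-23). Its difference thus ran the same way as that of Sdhd.

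Summed over the members, the subunit transcripts were more abundant in GM-BMDM than in the other libraries. They summed to 8090 scaled CPM in GM-BMDM after 3 h of IL6 and 8179 in GM-BMDM, against 5798, 6478 and 6034 in M-BMDM without IL6, after 3 h and after 24 h, and 5896 in BM. As a share of each library's counts, with no scaling between libraries, these sums were 0.732% and 0.737% in the GM-CSF libraries, against 0.583%, 0.632% and 0.667% in the M-CSF libraries and 0.667% in BM. Both GM-CSF libraries were above the other 4 on either measure. In bulk RNA, fewer cells of a type and less RNA per cell cannot be told apart.

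Levels of different genes were compared per kilobase of the gene length given in the table. The median of complex IV members with at least 10 scaled CPM in a library was 201 scaled CPM per kilobase in GM-BMDM, against 130 in M-BMDM and 121 in BM, and the median of complex I members was 51.4, against 38.1 and 42.3. Complexes II, III and V lay between them, with medians of 90.1, 124 and 139 in GM-BMDM. The order I, II, III, V, IV from low to high was the same in all 6 libraries. In M-BMDM the medians in this order were 38.1, 65.0, 85.2, 98.9 and 130, and in BM 42.3, 56.9, 86.5, 112 and 121. Cox4i1, the common form of a regulatory complex IV subunit, was highest per kilobase in the cultures, with 562 and 613 in GM-BMDM after 3 h of IL6 and without it, against 422 in M-BMDM. Atp5b, the catalytic beta subunit of ATP synthase, came next with 489 and 463 in the GM-CSF libraries against 324 in M-BMDM, and was highest in BM with 352. Atp5g1, one of 3 genes for the membrane ring of ATP synthase, had only 16.7 in GM-BMDM, but its length in the table was 4715 bases against 596 for the principal transcript in the annotation, so its level per kilobase depends on that choice.

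**Figure D1:**
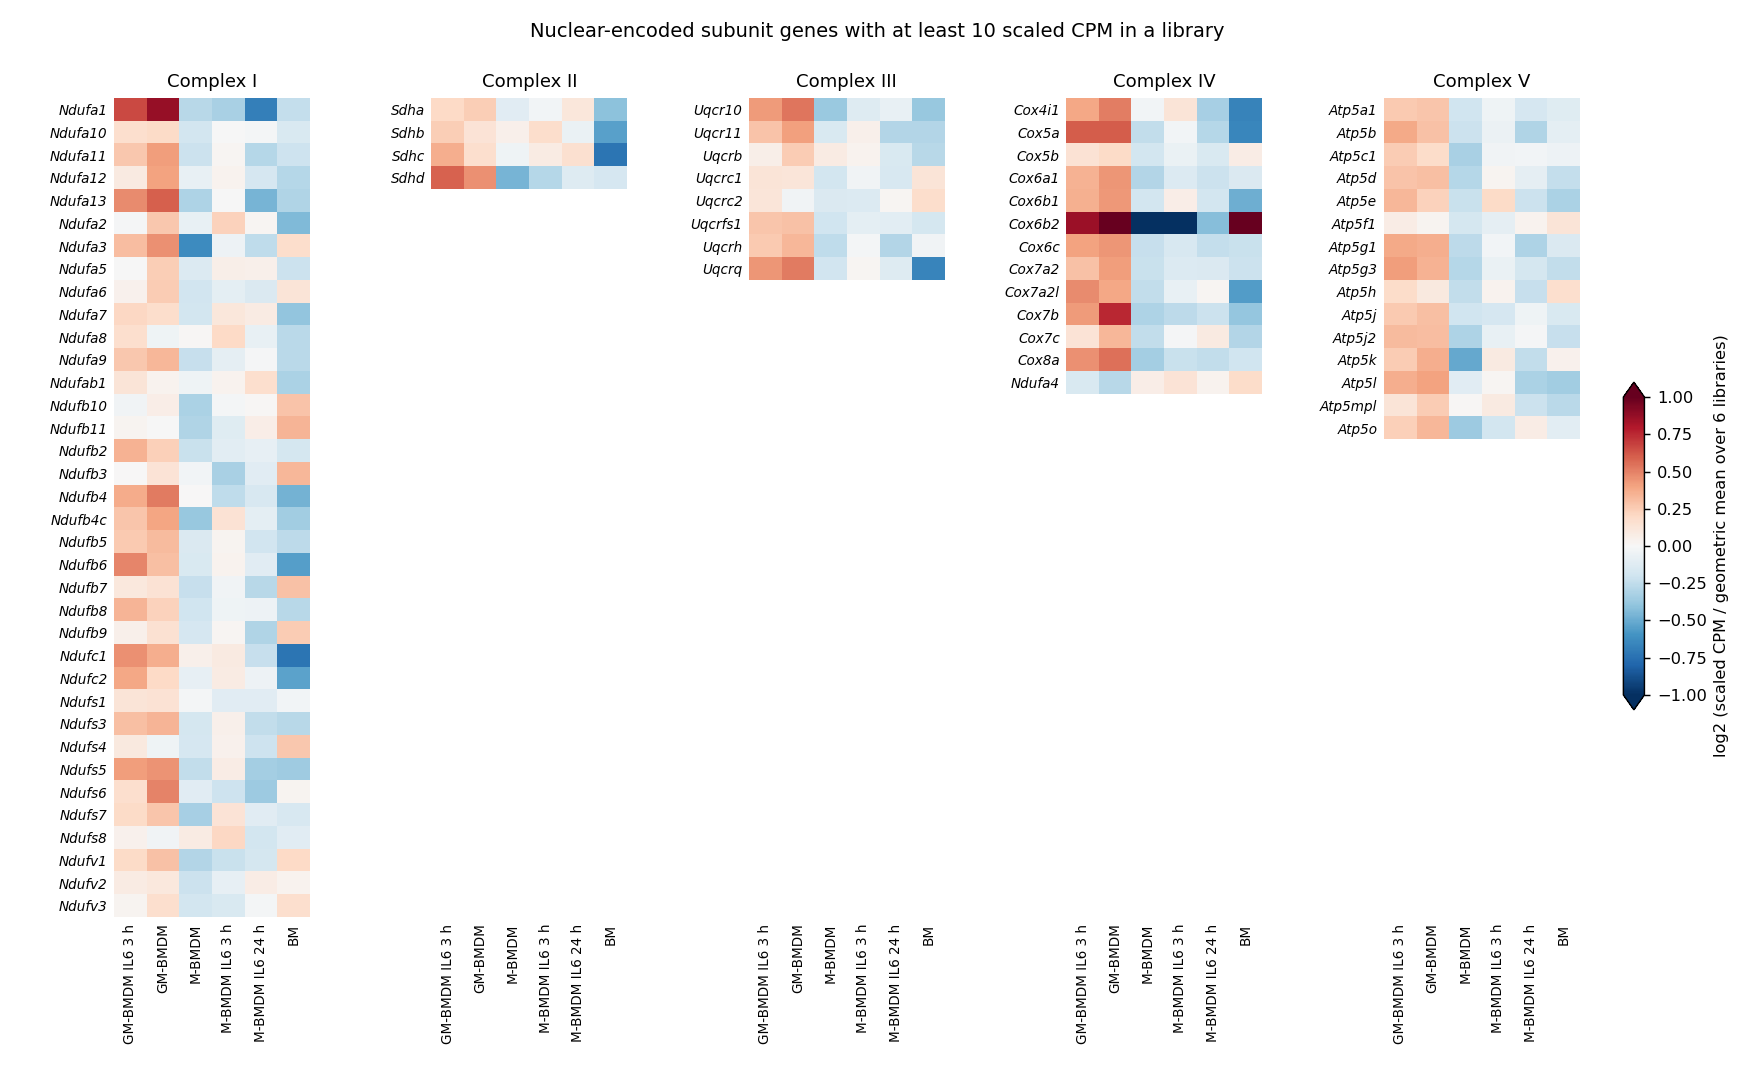
Scaled CPM of 76 of the 77 members with at least 10 scaled CPM in a library, as log2 of each library over the gene's geometric mean across the 6 libraries, 1 panel per complex. Columns run from GM-BMDM with IL6 for 3 h on the left to BM on the right; in the 2 GM-CSF columns most cells are red (above the gene's mean), while Ndufa4 is blue there and Cox6b2 passes the end of the colour scale.

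The ratio of GM-BMDM to M-BMDM was above 1 for most subunit genes of every complex, both without IL6 and after 3 h of it, while Ndufa4 was lower in the GM-CSF type. Ndufa1, Sdhd, Cox7b, Cox8a and Cox5a, which belong to complexes I, II and IV, passed the limits in both pairs of libraries. The share of all genes called in both pairs was not counted. For each pair of libraries a member was called higher or lower when the ratio of scaled counts reached 1.5-fold, the exact 95% interval lay on 1 side of 1, and 5 scaled CPM or more were found in the library with the higher value. The intervals cover counting error only, and with 1 library per group there is no test of these ratios. In GM-BMDM over M-BMDM, 26 of the 81 members were higher and 0 lower, where 13.8% of the 14719 genes analysed were higher and 13.1% lower. The ratio was above 1 in 78 members, and in 50% of all genes analysed. The median log2 ratio of members with at least 10 scaled CPM was 0.49, against −0.03 for all genes with at least 5. Except in the length classes below, medians of pair ratios for all genes cover genes with at least 5 scaled CPM in the higher library. In the same pair after 3 h of IL6, 6 members were higher and 0 lower, where 13.3% of all genes were higher and 12.5% lower. The share of members called higher was thus below that of all genes in this pair. The ratio was above 1 in 75 members there, and in 49.5% of all genes analysed, and the median of members was 0.27. The 6 members were Ndufa1, Sdhd, Cox7b, Cox8a, Cox5a and Ndufb4. At a 2-fold limit 3 members, Ndufa1, Ndufa3 and Cox7b, were higher and 0 lower in GM-BMDM over M-BMDM, where 7.7% of all genes were higher and 6.16% lower, and 0 members were called in the pair after 3 h, where 7.53% were higher and 5.72% lower.

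Across the 5 cultures, 67 of the 81 members were higher in both GM-CSF libraries than in any of the 3 M-CSF libraries, which held for 25.7% of all genes analysed. In 1 member, Ndufa4, both GM-CSF libraries were below all 3 M-CSF libraries, which held for 23.6% of all genes. The scaling sets part of these numbers: with total counts in place of TMM the median of all genes moved by −0.16 in GM-BMDM over M-BMDM, and the median of the members was then 0.33, with 10 members called higher, where 10.5% of all genes were. In the pair after 3 h of IL6 this shift was −0.11 and the median of the members 0.16, with 2 called higher, where 11% of all genes were.

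The 2 pairs of macrophage libraries were tested together with edgeR's quasi-likelihood test, fitted to all 6 libraries with terms for BM, for the GM-CSF type, for 3 h of IL6 and for 24 h of IL6. Its p-values rest on 1 residual degree of freedom, which is how far the response to 3 h of IL6 differed between both types, and on a coefficient of variation of 6.45% shared across genes. The spread shared across genes had a weight of 502.3 degrees of freedom, so a gene's own disagreement between the 2 pairs hardly entered its p-value. Spread between separate cultures was not measured. The p-values thus rest on a spread between these libraries that was pooled over genes and may be technical. After Benjamini-Hochberg adjustment over all genes at 0.05, 65 members rose in the GM-CSF type, 1 fell and 15 did not pass. Of all genes analysed 28.9% rose and 27.4% fell. The median log2 fold change was 0.40 for members and 0.01 for all genes. All 66 members that passed had the same sign in both pairs. The type term was fitted to these same pairs, so this agreement is no separate support. With total counts 43 members rose and 2 fell, where 23.4% of all genes rose and 33.4% fell. With the DESeq2 Wald test 36 members rose and 0 fell, where 18.3% of all genes rose and 15.4% fell. With a coefficient of variation fixed at 0.2, a larger spread than the one measured, edgeR's likelihood ratio test replaced the quasi-likelihood test. There 8 members rose and 0 fell, where 17.3% of all genes rose and 12.3% fell, so that the share of members called was below that of all genes. Every fold change of the type test given below, also where a gene is said to rise or fall by a value, is on the log2 scale. Markers of other cells also differed between the types: the 8 neutrophil markers summed to 18.8 and 19.2 scaled CPM in the GM-CSF libraries against 2.2, 3.4 and 1.79 in the M-CSF libraries, with Retnlg at 0 in all 5, and the 4 megakaryocyte markers to 105 in both against 48.2, 52.5 and 30.4. Of the 9 macrophage markers 3 rose and 5 fell. The part of such markers in the subunit values was not tested.

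**Figure D2:**
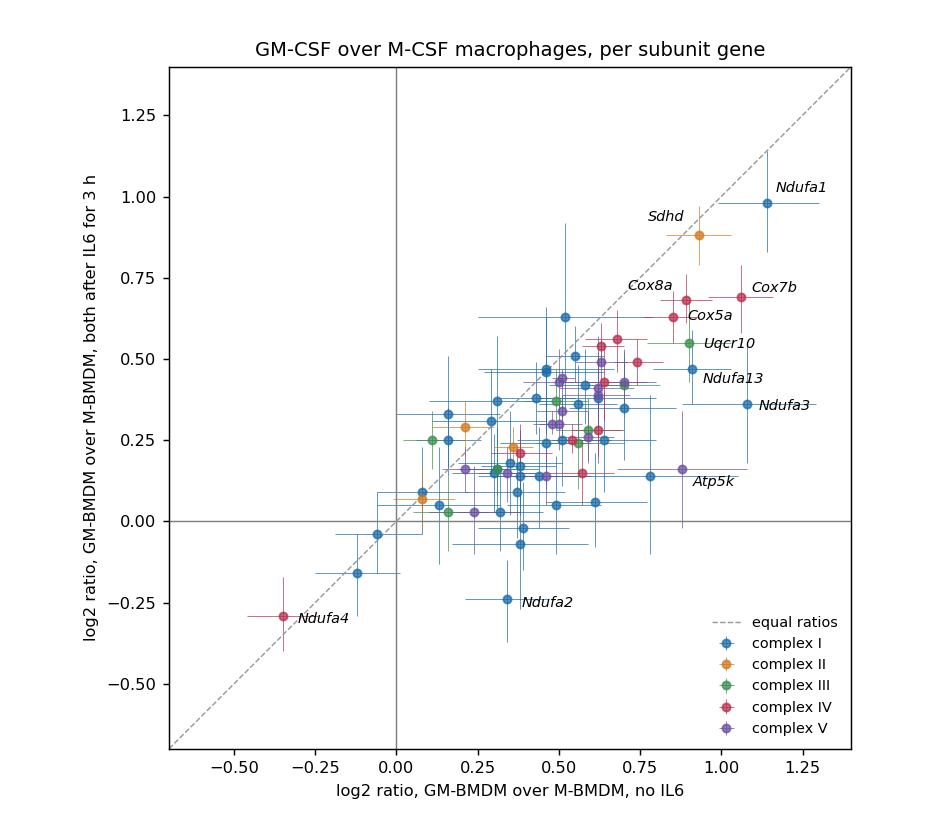
Log2 ratio of scaled counts in GM-BMDM over M-BMDM without IL6 (x axis) and with both after IL6 for 3 h (y axis), with exact 95% counting intervals. Shown are the 77 members with at least 10 scaled CPM in a library. Points are coloured by complex, and the dashed line marks equal ratios. Most points lie above 0 on both axes and right of the dashed line, Ndufa1 lies at 1.14 and 0.98, Ndufa4 lies below 0 on both, and Cox6b2 at 5.13 and 3.27 is outside the axes.

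Complex I takes in electrons from NADH through a peripheral arm and pumps protons through a membrane arm. In the type test 29 of its 37 members that passed the level filter rose and 0 fell. Ndufa1, a small accessory subunit of the membrane arm that is X-linked in mice (chromosome X, 37187588 to 37191163, ENSMUSG00000016427), led them. It had 48.1 and 55.7 scaled CPM in GM-BMDM after 3 h of IL6 and without it, against 25.2, 24.3 and 19.0 in M-BMDM without IL6, after 3 h and after 24 h, and 25.8 in BM. The GM-CSF libraries lay above the other 4, which ran from 19.0 to 25.8 scaled CPM. Its log2 fold change in the GM-CSF type was 1.06 (SE 0.102, edgeR adjusted p 2.46e-22), 1.14 in the untreated pair and 0.98 in the pair after 3 h.

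The core subunits of complex I described here, most of which bind its flavin or iron-sulfur clusters, had smaller fold changes than Ndufa1. In the module that oxidises NADH, Ndufv1 had 71.2 and 76.4 scaled CPM in the GM-CSF libraries against 51.0, 53.4 and 55.3 in the M-CSF libraries, and rose by 0.50 on the log2 scale (SE 0.092, edgeR adjusted p 3.92e-07). Ndufs1 of the same module had 82.7 and 83.3 against 74.6, 69.7 and 69.8, a small rise of 0.20 (SE 0.090, edgeR adjusted p 0.0436), and Ndufv2 rose by 0.24 (edgeR adjusted p 0.0224). In the module that binds ubiquinone, Ndufs3 rose by 0.38 and Ndufs7 by 0.33. Ndufs8, a further iron-sulfur subunit, had 49.2 and 46.6 scaled CPM in the GM-CSF libraries against 50.5, 55.0 and 41.9 in the M-CSF libraries and did not pass (log2 fold change −0.14, edgeR adjusted p 0.213).

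Among the accessory subunits of complex I, which surround the core and are needed for its assembly or stability, Ndufa13 and Ndufa3 followed Ndufa1. Ndufa13, also known as Grim19, had 75.2 and 82.3 scaled CPM in the GM-CSF libraries against 43.9, 54.2 and 39.4 in the M-CSF libraries (log2 fold change 0.69, SE 0.094, edgeR adjusted p 4.93e-12). Ndufa3 had 28.1 and 31.1 scaled CPM in the GM-CSF libraries, against 14.7, 21.9 and 19.0 in the M-CSF libraries in the order above, so its log2 ratio was 1.08 in the untreated pair and 0.36 after 3 h of IL6. Ndufs5 rose by 0.52 and Ndufs6 by 0.50, and Ndufb2, Ndufb6 and Ndufa9 rose by 0.46 each. Ndufa2, Ndufa5, Ndufa8, Ndufab1, Ndufb9, Ndufb10 and Ndufs4 did not pass, with log2 fold changes from −0.05 to 0.18. Ndufa2 had log2 ratios of opposite sign in the 2 pairs, 0.34 (95% interval 0.21 to 0.47) without IL6 and −0.24 (−0.37 to −0.12) after 3 h.

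Ndufb4 and its processed pseudogene Ndufb4c are near copies, and the submitters' counting could split reads between them. Ndufb4 had 12.6 and 13.9 scaled CPM in the GM-CSF libraries against 9.72, 8.16 and 8.68 in the M-CSF libraries, and Ndufb4c had 14.3 and 15.5 against 9.07, 13.0 and 11.0. Both rose in the type test, by 0.57 and 0.45, and neither value can be assigned to 1 locus with certainty.

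Complex II, the succinate dehydrogenase that also belongs to the citric acid cycle, has 4 subunits, all encoded in the nucleus. Sdhd, a membrane anchor that helps to bind ubiquinone (chromosome 9, 50596357 to 50603812), stood out among them. It had 138 and 126 scaled CPM in the GM-CSF libraries, against 66.4, 75.2 and 84.1 in the M-CSF libraries and 81.8 in BM, and its log2 fold change was 0.90 (SE 0.087, edgeR adjusted p 7.1e-22). The GM-CSF libraries did not overlap with any other. The other anchor, Sdhc, had 119 and 104 scaled CPM in the GM-CSF libraries against 89.9, 97.6 and 103 in the M-CSF libraries, with a log2 fold change of 0.25 (SE 0.087, edgeR adjusted p 0.00927). Of the catalytic subunits, the flavoprotein Sdha rose by 0.29 (SE 0.082, edgeR adjusted p 0.000903), with 274 and 283 scaled CPM in the GM-CSF libraries against 221, 234 and 259. The iron-sulfur subunit Sdhb had 102 and 94.4 against 89.1, 97.5 and 82.2 and did not pass (log2 fold change 0.08, edgeR adjusted p 0.473).

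Complex III passes electrons from ubiquinol to cytochrome c. Of its 8 members 6 rose and 0 fell. Uqcr10 had 65.4 and 70.4 scaled CPM in the GM-CSF libraries, against 37.6, 44.6 and 46.2 in the M-CSF libraries and 37.4 in BM (log2 fold change 0.73, SE 0.095, edgeR adjusted p 7.79e-13). Uqcrq rose by 0.56, Uqcrh by 0.43 and Uqcr11 by 0.40. The Rieske iron-sulfur protein Uqcrfs1, which takes the first electron from ubiquinol, had 98.4 and 99.1 scaled CPM in the GM-CSF libraries against 70.7, 75.9 and 75.4 and rose by 0.43 (SE 0.089, edgeR adjusted p 5.24e-06). The core protein Uqcrc1 had 160 and 159 against 129, 143 and 131 and rose by 0.23 (SE 0.083, edgeR adjusted p 0.0111). Uqcrc2, with 103 and 92.7 against 85.7, 86.5 and 96.1, and Uqcrb, with 58.5 and 66.9 against 59.7, 57.5 and 50.7, did not pass (edgeR adjusted p 0.0624 and 0.398).

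Complex IV, cytochrome c oxidase, reduces oxygen to water, and its nuclear subunits surround a catalytic core made in the mitochondrion. Of its 15 members 12 rose, 1 fell and 2 did not pass. Cox7b, a small subunit of the membrane part (chromosome X, 106015700 to 106022450), had 94.6 and 119 scaled CPM in the GM-CSF libraries, against 57.1, 58.8 and 60.7 in the M-CSF libraries and 53.9 in BM. Its log2 fold change was 0.87 (SE 0.091, edgeR adjusted p 3.07e-19). Cox8a had 181 and 193 scaled CPM against 104, 113 and 111, and 115 in BM (log2 fold change 0.79, SE 0.084, edgeR adjusted p 1.58e-18). Cox5a, a subunit on the matrix side, had 149 in both GM-CSF libraries against 82.9, 96.4 and 80.6, and 62.6 in BM (log2 fold change 0.74, SE 0.086, edgeR adjusted p 9.15e-16). For all 3 genes the GM-CSF libraries lay above every other library.

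Cox6c, Cox6a1, Cox7a2l, Cox7a2 and Cox6b1 rose by between 0.45 and 0.62. Cox7a2l, a factor known to join complexes III and IV into supercomplexes and to occur in C57BL/6 mice as a shortened form, had 241 and 227 scaled CPM in the GM-CSF libraries against 146, 165 and 176 in the M-CSF libraries. Cox4i1 had 430 and 469 scaled CPM in the GM-CSF libraries, against 323, 361 and 262 in the M-CSF libraries and 207 in BM, with a log2 fold change of 0.39 (SE 0.083, edgeR adjusted p 8.87e-06). Its hypoxia-linked isoform Cox4i2 was near 0, with 0 counts in both GM-CSF libraries.

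Ndufa4, long counted with complex I and now known as a subunit of complex IV, ran the other way. It had 61.1 and 55.9 scaled CPM in GM-BMDM after 3 h of IL6 and without it, against 71.1, 74.5 and 69.6 in M-BMDM without IL6, after 3 h and after 24 h, and 77.2 in BM. The GM-CSF libraries were the 2 lowest of the 6. Its log2 fold change was −0.32 (SE 0.091, edgeR adjusted p 0.0014), −0.35 in the untreated pair and −0.29 after 3 h, and it did not pass in the DESeq2 Wald test (adjusted p 0.145). Over the alternatives to the test its adjusted p ran from 6.73e-05 to 0.465.

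The protein of AA467197, known as Nmes1 and in humans as C15orf48, is related to Ndufa4 and can take its place in complex IV; this gene was chosen after its values were seen. AA467197 had 141 and 131 scaled CPM in the GM-CSF libraries, against 52.7 and 48.9 in M-BMDM without IL6 and after 3 h, and 29.0 in BM. It rose by 1.42 in the type test (edgeR adjusted p 2.94e-43), opposite in direction to Ndufa4. After 24 h of IL6 it had 5.73 scaled CPM in M-BMDM, a log2 ratio of −3.20 (95% interval −3.47 to −2.94) to the library without IL6, while Ndufa4 had a log2 ratio of −0.03 (interval −0.14 to 0.07).

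**Figure D3:**
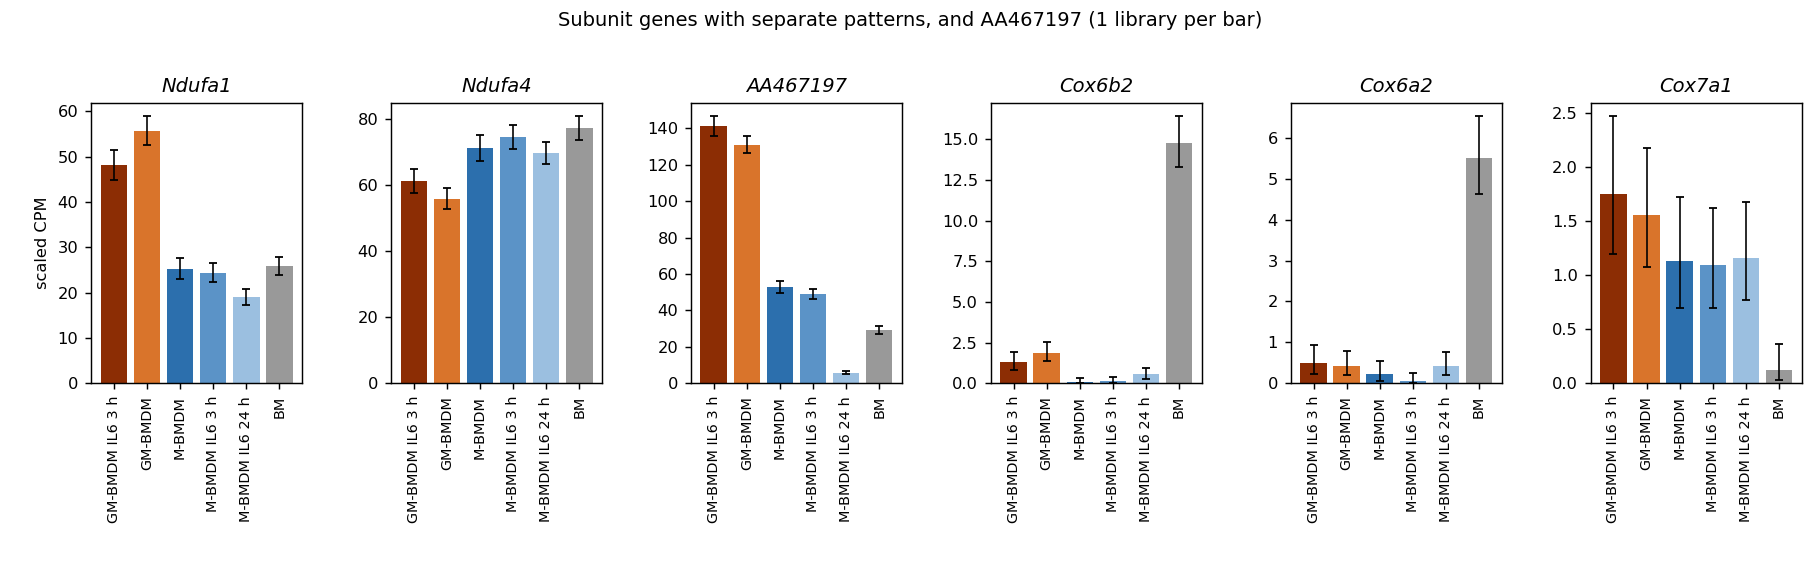
Scaled CPM of 5 members and of AA467197 in each library, from GM-BMDM with IL6 for 3 h on the left to BM on the right; each bar is 1 library, and whiskers are exact 95% Poisson intervals for counting error. Ndufa1 is high in the 2 GM-CSF libraries, Ndufa4 is lowest there and AA467197 highest, while Cox6b2 and Cox6a2 are high in BM and Cox7a1 is low in BM.

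ATP synthase has a catalytic head in the matrix, driven through a stalk by a proton-turned ring in the membrane. Of its 17 members 15 rose and 0 fell. In the head, the alpha subunit Atp5a1 had 714 and 722 scaled CPM in the GM-CSF libraries, against 519, 579 and 530 in the M-CSF libraries and 547 in BM (log2 fold change 0.39, SE 0.086, edgeR adjusted p 2.12e-05). The beta subunit Atp5b had 938 and 886 against 621, 691 and 586, and 675 in BM (log2 fold change 0.48, SE 0.087, edgeR adjusted p 2.22e-07). The gamma, delta and epsilon subunits, Atp5c1, Atp5d and Atp5e, rose by 0.40, 0.42 and 0.30.

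The ring is built from 1 protein encoded by 3 genes, whose mature products are identical. Atp5g3 had 171 and 163 scaled CPM in the GM-CSF libraries against 105, 122 and 113 in the M-CSF libraries and rose by 0.56 (SE 0.083, edgeR adjusted p 2.91e-10), and Atp5g1 rose by 0.51. Atp5g2 had 6.34 and 7.27 against 5.48, 6.12 and 3.70 and did not pass (log2 fold change 0.23, edgeR adjusted p 0.429). In the stalk and membrane part, Atp5o, the subunit that confers sensitivity to oligomycin, rose by 0.57, Atp5k by 0.51 and Atp5j2 by 0.50, and Atp5f1 rose by 0.18 (edgeR adjusted p 0.0483). Atp5mpl, with 42.9 and 46.8 scaled CPM against 39.6, 41.9 and 33.8, did not pass.

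Many members are short. Among members with a deposited length under 1000 bases the median log2 ratio of GM-BMDM over M-BMDM was 0.52, and among longer members 0.47. Over all genes analysed with at least 10 scaled CPM the medians were 0.19 for the short and −0.07 for the longer genes. After 3 h of IL6 the medians were 0.27 for members of both length classes, with 0.00 and −0.06 for all genes. With each library's trend with gene length removed, 12 members rather than 26 were higher in GM-BMDM over M-BMDM, where 14.2% of all genes were, and the median log2 ratio of members was 0.38 rather than 0.49.

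Against uncultured marrow, members called higher were more numerous in GM-BMDM, at 32, than in M-BMDM, at 4; complex II was higher in GM-BMDM in all 4 subunits and in M-BMDM in Sdhb and Sdhc. Both comparisons share the BM library, and both cross a change in cell makeup, since the neutrophil and erythroid marker sums ran from 1.79 to 19.2 and from 5.43 to 10.3 scaled CPM in the cultures, against 37104 and 81619 in BM. The 6 B lineage markers summed to between 0.272 and 0.872 in the cultures, against 636 in BM. The part of these markers in the subunit ratios was not tested. In GM-BMDM over BM, 32 members were higher and 3 lower, where 22.3% of all genes were higher and 24.5% lower. The median log2 ratio was 0.52, against −0.03 for all genes with at least 5 scaled CPM in the higher library. With total counts, which moved the median of all genes by −0.33, the median of members was 0.19 and 9 were higher, where 16.3% of all genes were. In M-BMDM over BM, 4 members were higher and 6 lower, where 23.1% of all genes were higher and 23.8% lower. The median was −0.03, against 0.06 for all genes with at least 5 scaled CPM in the higher library. The ratio was above 1 in 35 members there, and in 47.8% of all genes analysed. With total counts, which moved the median of all genes by −0.17 there, the median of members was −0.20, and 1 was higher and 11 lower, where 19.7% of all genes were higher and 27.9% lower. At a 2-fold limit 6 members were higher and 2 lower in GM-BMDM over BM, where 15.3% of all genes were higher and 17.2% lower, and 0 were higher and 3 lower in M-BMDM over BM, where 15.4% were higher and 17.6% lower.

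By complex, the share higher in GM-BMDM over BM was 13 of 37 in complex I, 4 of 4 in complex II, 3 of 8 in complex III, 10 of 13 in complex IV and 1 of 15 in complex V, among members with at least 10 scaled CPM, and Atp5g2 was the 1 further member called. Among these Cox5a had the highest ratio, with 149 scaled CPM in GM-BMDM against 62.6 in BM (95% interval of the log2 ratio 1.16 to 1.34), followed by Cox4i1 with a log2 ratio of 1.18 (1.13 to 1.23) and Uqcrq with 1.17 (1.07 to 1.28). The members higher in M-BMDM over BM were Ndufc1, with a log2 ratio of 0.78 (0.54 to 1.03), Sdhc with 0.69 (0.59 to 0.80), Cox4i1 with 0.64 (0.59 to 0.70) and Sdhb with 0.59. The lower ones were Ndufa3, with −0.81 (−1.02 to −0.60), Ndufb11 with −0.64, Ndufb10 with −0.60, and the low-level genes Cox6b2, Cox6a2 and Atp5s.

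**Figure D4:**
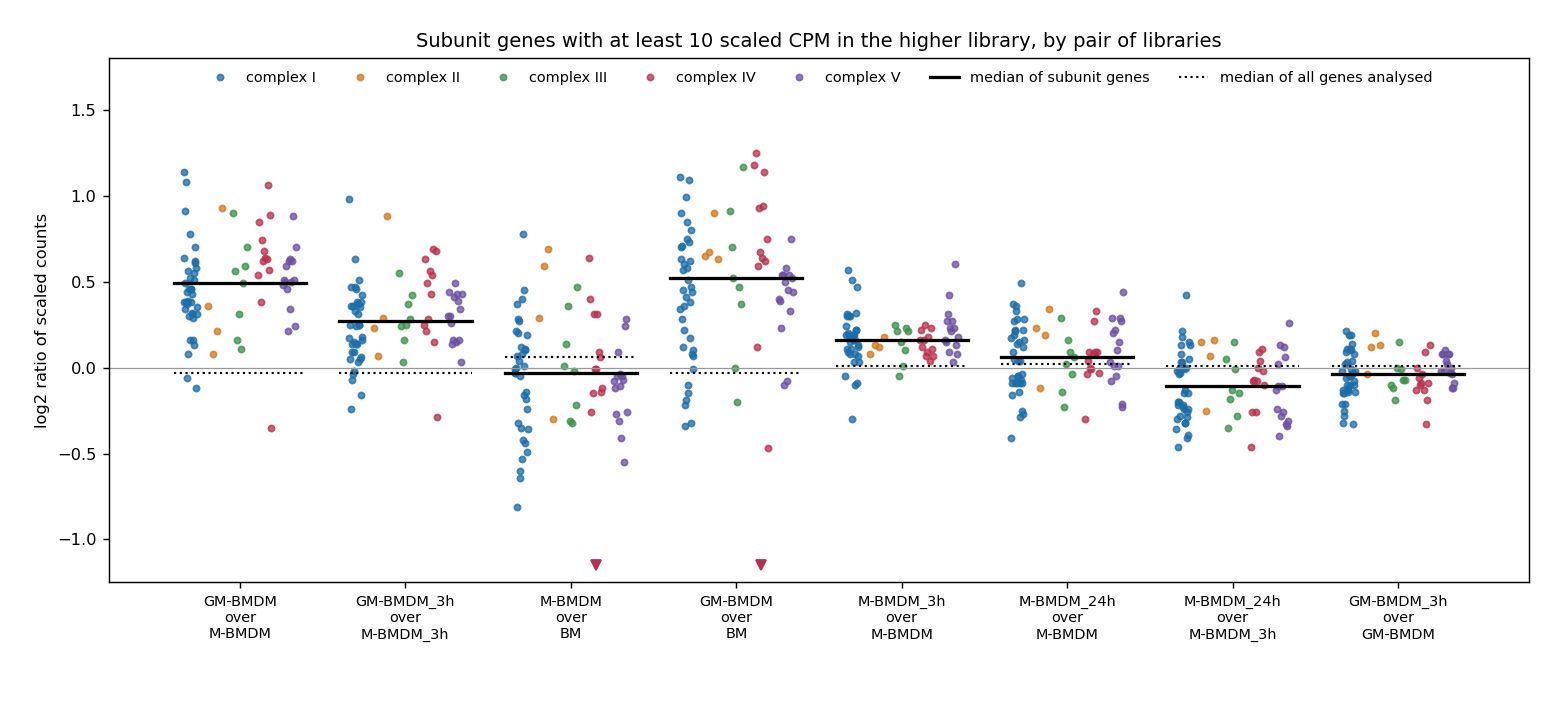
Log2 ratio of scaled counts of members with at least 10 scaled CPM in the higher library, for 8 pairs of libraries, coloured by complex; solid bars are the median of these members and dotted bars the median of all genes analysed. The medians were 0.49, 0.27, −0.03, 0.52, 0.16, 0.06, −0.11 and −0.04 from left to right, and triangles mark Cox6b2 where it lies below the axis.

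The isoforms tied to other tissues were at low levels, and their values are given as a description. Cox6a2 passed the level filter of 1 CPM before scaling only through BM and Cox7a1 only through the cultures. Cox6b2, known as the testis form of a complex IV subunit (chromosome 7, 4751792 to 4753094), had 1.31 and 1.89 scaled CPM in the GM-CSF libraries and 0.0537, 0.136 and 0.54 in the M-CSF libraries without IL6, after 3 h and after 24 h, the first from 1 count. In BM it had 14.8 scaled CPM from 359 counts. Its log2 ratio to BM was −2.97 (95% interval −3.47 to −2.50) in GM-BMDM and −8.10 (−13.41 to −5.62) in M-BMDM. Between the macrophage types it rose by 3.93 (SE 0.610, edgeR adjusted p 1.33e-09), at a level that stayed under 2 scaled CPM. Per kilobase, GM-BMDM held 4.82 scaled CPM of Cox6b2 and 240 of the common form Cox6b1, against 37.8 and 126 in BM.

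Cox6a2, the heart and muscle form of another complex IV subunit, had between 0.0453 and 0.492 scaled CPM in the 5 cultures against 5.51 in BM, with a log2 ratio to BM of −3.74 (95% interval −4.90 to −2.77) in GM-BMDM and −4.68 (−6.58 to −3.29) in M-BMDM. It did not pass in the type test (edgeR adjusted p 0.0584). Cox7a1, the heart and muscle form of a further subunit, ran opposite, with 1.75 and 1.56 scaled CPM in the GM-CSF libraries and between 1.09 and 1.16 in the M-CSF libraries, against 0.123 in BM from 3 counts. Its log2 ratio to BM was 3.66 (1.99 to 6.01) in GM-BMDM and 3.19 (1.45 to 5.58) in M-BMDM. Atp5s, a protein related to a coupling factor of ATP synthase, had 3.88 and 4.14 scaled CPM in the GM-CSF libraries, 2.09, 2.90 and 3.24 in the M-CSF libraries and 6.38 in BM.

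IL6 is a cytokine that signals through gp130 and Stat3. In the test of 3 h of IL6, which uses both macrophage types, 0 members rose and 0 fell in edgeR at an adjusted p under 0.05, where 0.177% of all genes rose and 0.788% fell. At an unadjusted p under 0.05 there were 5 upward and 2 downward, where 2.89% of all genes were upward and 5.37% downward. The DESeq2 Wald test and limma-voom also called 0 members, where 0.0204% and 0.659% of all genes were called. The lowest adjusted p was that of Atp5e, 0.198, with a log2 fold change of 0.26 (SE 0.089). Atp5e had 101 scaled CPM after 3 h and 94.2 without IL6 in GM-BMDM, and 91.6 after 3 h and 68.6 without IL6 in M-BMDM. A p that misses the threshold does not show that levels were equal.

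The 2 macrophage types gave different medians at 3 h. In M-BMDM after 3 h over M-BMDM without IL6, the ratio was above 1 in 73 of 81 members with a median of 0.16, against 0.01 for all genes. Of all genes analysed 48.4% had a ratio above 1 in this pair. In GM-BMDM after 3 h over GM-BMDM, the ratio was above 1 in 30 members with a median of −0.04, and in 50.4% of all genes analysed. With the length trend removed these medians were 0.06 in the M-CSF pair and −0.01 in the GM-CSF pair. The difference between these responses is the residual of the fit and could not be tested. Short genes as a whole also had a median of 0.14 in the M-CSF pair, where short members had 0.19. Ndufa2 had log2 ratios of opposite sign, 0.31 (95% interval 0.18 to 0.44) in M-BMDM and −0.28 (−0.41 to −0.15) in GM-BMDM. In the M-CSF pair 1 member was called higher, Atp5k, a small subunit of the membrane part of ATP synthase, where 0.38% of all genes were higher and 0.747% lower. Atp5k had 24.7 scaled CPM after 3 h against 16.3 without IL6, a log2 ratio of 0.60 (95% interval 0.39 to 0.81), and 19.6 after 24 h. It was not called with total counts or with the length trend removed. In GM-BMDM after 3 h over GM-BMDM 0 members were called either way, where 0.224% of all genes were higher and 0.523% lower. At a 2-fold limit 0 members were called in either pair, where 0.0611% of all genes were higher and 0.183% lower in M-BMDM, and 0.0408% higher and 0.0747% lower in GM-BMDM.

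After 24 h of IL6 the M-CSF library differed from the untreated one in many genes, but no subunit gene met all 3 limits for a call. Atp5s, with a log2 ratio of 0.63 (95% interval 0.06 to 1.22), and Cox6b2 were above 1.5-fold with intervals above 1, but stayed under 5 scaled CPM. In M-BMDM after 24 h over M-BMDM without IL6, 0 members were higher or lower, where 14.9% of all genes were higher and 12.4% lower. The median of members was 0.06, against 0.02 for all genes with at least 5 scaled CPM in the higher library. With total counts, which moved the median of all genes by 0.14, the median of members was 0.20. These ratios compare single libraries with no replicate. At a 2-fold limit 0 members were called, where 8.06% of all genes were higher and 6.26% lower. Atp5o had a log2 ratio of 0.44 (95% interval 0.34 to 0.54). Among members with at least 10 scaled CPM the lowest were Ndufa1 with −0.41 (−0.60 to −0.22), Cox4i1 with −0.30 (−0.35 to −0.25) and Ndufc1 with −0.29 (−0.51 to −0.07), and Atp5g2, at a lower level, had −0.57 (−0.99 to −0.14). In M-BMDM after 24 h over 3 h, 1 member was lower, Atp5g2, where 12.4% of all genes were lower and 14.8% higher. At a 2-fold limit 0 were called, where 8.18% were higher and 6% lower. The median of members there was −0.11, but 0.07 with total counts, which moved the median of all genes by 0.18, so its direction depends on the scaling.

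Partner genes of the pathway did not all move with the subunits in the type test. Of 12 protein genes of the mitochondrial genome above the level filter, which supply the catalytic cores, 11 rose and 1 fell, with a median log2 fold change of 0.77. mt-Co1, which encodes the catalytic subunit of complex IV, had 16414 and 15937 scaled CPM in the GM-CSF libraries against 9183, 9445 and 9218 in the M-CSF libraries (log2 fold change 0.80, edgeR adjusted p 4.45e-12). mt-Co2, a further core subunit, fell by 0.44 (edgeR adjusted p 1e-06) and varied within each type, with 81.5 and 203 scaled CPM in the GM-CSF libraries and 231, 133 and 95.9 in the M-CSF libraries. How reads shared by mitochondrial DNA and its nuclear copies were counted is not given in the sources used here.

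Of 20 genes of the citric acid cycle and of pyruvate entry, 15 rose and 2 fell, with a median of 0.29, and 8 rose and 4 fell with total counts. Pcx, the pyruvate carboxylase, had 21.3 and 21.7 scaled CPM in the GM-CSF libraries against 7.25, 8.43 and 13.7 in the M-CSF libraries (log2 fold change 1.45, edgeR adjusted p 4.57e-26), and Mpc1, a subunit of the mitochondrial pyruvate carrier, had 193 and 180 against 75.8, 79.3 and 39.4 (log2 fold change 1.26, edgeR adjusted p 3.34e-39). Ogdh, of the 2-oxoglutarate dehydrogenase complex, rose by 0.84, while the succinyl-CoA ligase subunit Suclg2 fell by 0.53. Among 22 genes of the mobile electron carriers and their entry points 8 rose and 3 fell, with a median of 0.12 that turned to −0.02 with total counts, where 8 rose and 5 fell. Etfdh, which feeds electrons from fatty acid oxidation into ubiquinone, rose by 0.97, and cytochrome c, Cycs, fell by 0.51, with 61.3 and 62.2 scaled CPM in the GM-CSF libraries against 90.6, 85.1 and 48.3 in the M-CSF libraries.

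Genes that build the complexes gave other counts. Of 16 assembly factors of complex I 0 rose and 1, Ndufaf4, fell, by 0.88. With total counts 5 fell, where 33.4% of all genes fell, and the median of −0.05 turned to 0.04 with upper-quartile factors. Of 38 assembly factors of complexes II to V 7 rose and 7 fell with a median of −0.05. With total counts 5 of them rose and 12 fell, with upper-quartile factors 10 rose and 5 fell with a median of 0.03, and in the DESeq2 Wald test 1 rose and 1 fell. Of 20 regulators of mitochondrial biogenesis 3 rose and 11 fell, with a median of −0.32 that stayed below 0 under each scaling tried, and 4 rose and 7 fell with upper-quartile factors. In the DESeq2 Wald test 2 of them rose and 4 fell, where 18.3% of all genes rose and 15.4% fell. Among the 11 that fell in the edgeR test were Esrra, a nuclear receptor of mitochondrial genes, by 0.76, the coactivator Pprc1 by 0.87, Nrf1 by 0.50 and Gabpa by 0.58. Gabpa had 43.3 and 46.8 scaled CPM in the GM-CSF libraries against 73.1, 61.7 and 64.1 in the M-CSF libraries. The coactivators Ppargc1b and Ppargc1a rose, at low levels. Ppargc1b had 7.98 and 8.51 scaled CPM in the GM-CSF libraries against 3.11, 1.90 and 2.08 in the M-CSF libraries, a log2 fold change of 1.74. Ppargc1a had 2.19 and 1.52 against 0.107, 0.0453 and 0, with a log2 ratio of 3.82 (95% interval 1.85 to 6.93) in the untreated pair.

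Of 78 mitochondrial ribosomal protein genes 15 rose and 22 fell (median −0.01), and of 82 cytosolic ones 7 rose and 18 fell (median −0.04); both medians changed sign with upper-quartile factors, to 0.07 and 0.04. With total counts 7 of the mitochondrial ribosomal genes rose and 28 fell, and 3 of the cytosolic ones rose and 37 fell. With upper-quartile factors these counts were 16 and 16, and 10 and 5. Of 23 import genes 4 rose and 8 fell, against 3 and 12 with total counts and 6 and 5 with upper-quartile factors. Of 14 inhibitor, uncoupler and hypoxia-response genes 7 rose and 3 fell, while 4 rose and 6 fell with total counts. Hif1a, the hypoxia-inducible factor, had 254 and 267 scaled CPM in the GM-CSF libraries against 721, 645 and 113 in the M-CSF libraries. These lists were not tested as sets, and their main counts are read only beside the 28.9% of all genes that rose and the 27.4% that fell. With total counts 23.4% of all genes rose and 33.4% fell, and with the DESeq2 Wald test 18.3% rose and 15.4% fell. With upper-quartile factors 55.1% of all genes passed either way, and the shares by direction are not given.

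**Figure D5:**
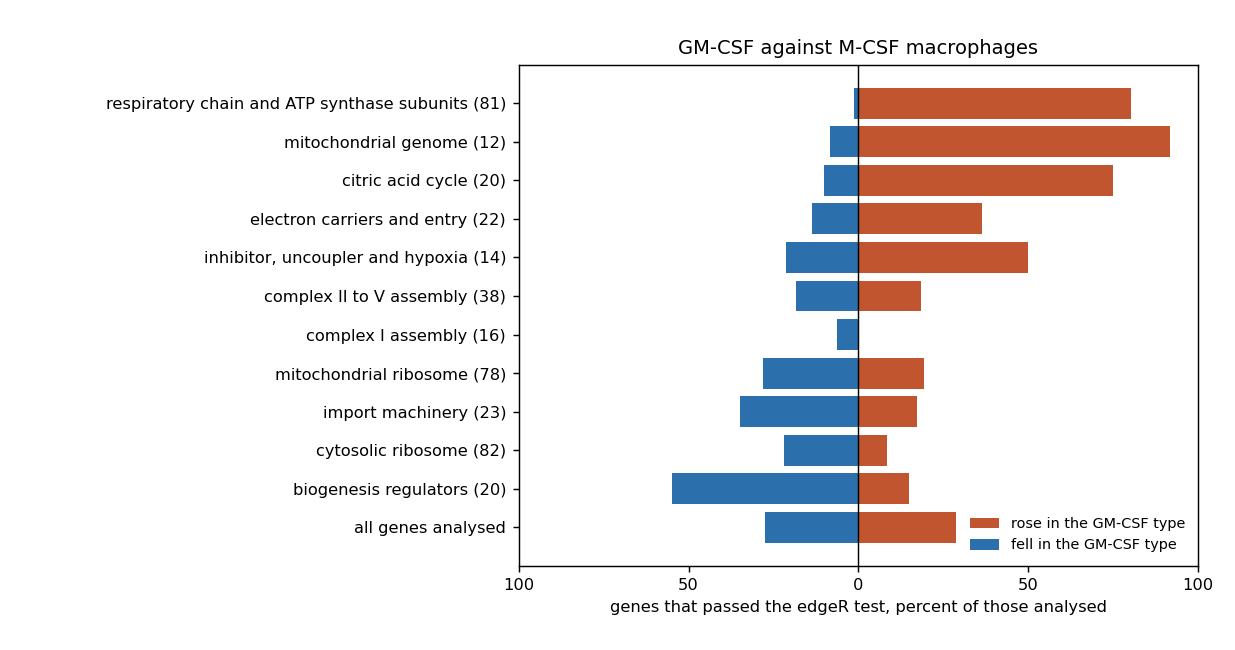
Genes that rose (right) or fell (left) in the GM-CSF type in edgeR's quasi-likelihood test, as a percent of the genes of each list that were analysed (number in brackets), with all genes at the bottom. Of the subunits 65 of 81 rose and 1 fell, of the citric acid cycle genes 15 of 20 rose and 2 fell, and of the biogenesis regulators 3 of 20 rose and 11 fell.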

How the data were processed

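The deposited table gives estimated counts, not scaled by the authors; between 24.7% and 27.7% of a library's values above 0 were not whole, and all were rounded. Per the submitters' processing notes, HISAT2, StringTie and DESeq2 were used with GRCm38; the sources used here give no version, order, setting or strand use, so overlapping and near-identical genes stay uncertain. The 742 unnamed rows (0.240% to 0.522% of counts) were left out.

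Genes with 1 CPM before scaling in at least 1 library were analysed (14719), and were then scaled by TMM (edgeR 4.0.16, R 4.3.3). Ratios of 2 libraries have exact 95% Clopper-Pearson intervals, which cover counting error only, since reads are not independent molecules. The type and 3 h terms were tested with edgeR's quasi-likelihood test; BM and 24 h rest on lone libraries and got no test. The SE was taken from the fold change and the F statistic. DESeq2 1.42.0 and limma 3.58.1 were alternatives. The steps were checked on simulated data.

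Named members were fixed core genes, all isoform genes, the 3 highest and 3 lowest ratios per pair at 10 scaled CPM or more and the 3 lowest adjusted p per direction and test; from other lists, up to 4 genes per list and pair with the largest ratios. Further genes named were chosen after their values were seen. Some genes that this rule names are not reported here. List counts under other scalings were added after the data were seen. Members and lists were chosen with earlier results of these data known. Lists, markers, positions and motifs came from gene symbols, GENCODE M21 and RefSeq.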

Additional observations from a re-analysis of the deposited data

Results flagged for a closer look

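A row outside the analysed members carried signal. Ndufb1-ps, which the choice of members left out for its symbol, had 767 counts in GM-BMDM, above the 3 counts that a count of 0 allows. The annotation calls it a bidirectional promoter lncRNA and describes it as the B1 subunit of complex I. It had 32.9 and 35.3 scaled CPM in GM-BMDM after 3 h of IL6 and without it, against 24.1, 25.7 and 22.1 in M-BMDM without IL6, after 3 h and after 24 h, and 31.3 in BM. Its log2 fold change in the GM-CSF type was 0.45 (edgeR adjusted p 4.85e-05).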

How the results depend on the processing

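No paired analysis was possible because each group has 1 library and the labels give no replicate number, and no library could be left out of a group. No member called in the main analysis reversed its direction in any alternative run. Values follow as higher and lower members. With total counts M-BMDM over BM had 1 and 11 (median −0.20), GM-BMDM over BM 9 and 6 (0.19), GM-BMDM over M-BMDM 10 higher (0.33), the pair after 3 h of IL6 2 higher, M-BMDM after 3 h over none 0, after 24 h over none 1 higher (0.20), and after 24 h over 3 h 1 and 0 (0.07). With a 2-fold limit M-BMDM over BM had 0 and 3, GM-BMDM over BM 6 higher, GM-BMDM over M-BMDM 3 higher, the pair after 3 h of IL6 0, M-BMDM after 3 h over none 0 and after 24 h over 3 h 0. With a lower limit, of 0.32 on the log2 scale, the 7 comparisons, in the order given for total counts, had 12 and 14, 56 and 5, 58 and 1, 32 higher, 5 higher, 7 and 2, and 1 and 12. In the same order 29.8%, 28.6%, 20.9%, 20.1%, 2.6%, 22.5% and 22.3% of all genes were higher at this limit. The shares lower were 29.4%, 30.9%, 22%, 21.1%, 3.77%, 19.9% and 20.1%. GM-BMDM after 3 h over none had 2 lower, where 1.63% of all genes were higher and 2.68% lower. With the length trend removed, defined over other coding genes after the data were seen, M-BMDM over BM had 2 higher, GM-BMDM over BM 15 (0.34), GM-BMDM over M-BMDM 12 (0.38), M-BMDM after 3 h over none 0 (0.06) and 24 h over 3 h 0 lower (0.02). With 10 scaled CPM in the higher library GM-BMDM over BM had 1 lower and 24 h over 3 h 0 lower, and with 1 scaled CPM 24 h over none had 1 higher. Upper-quartile factors gave 10 higher in the type pair after 3 h of IL6, and 1 lower at 24 h over none, as did DESeq2 size factors and a 5 CPM filter. No filter gave 2 higher in M-BMDM after 3 h over none. Where no share of all genes is stated here or above for an alternative, its member counts are a description only and cannot be set beside all genes. In the type test the DESeq2 Wald test gave 36 that rose and 0 that fell, where 33.8% of all genes were called. Total counts gave 43 and 2, where 56.7% were called. A coefficient of variation of 0.2, with the likelihood ratio test, gave 8 and 0, where 29.6% were called. The last 8 were Ndufa1, Sdhd, Cox7b, Cox8a, Cox5a, Uqcr10, Cox6a2 and Cox6b2, of which Cox6a2 did not pass in the main test. The cause of these changes was not tested. Depth limits Cox6b2, Cox6a2 and Cox7a1, which had 1 to 41 counts in the cultures.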
